A study of Mus musculus with 2 samples.

Results

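The H3K4me3 events described here are all those in a pair of deposited lists, 1 for places with more H3K4me3 reads in Dicer knockout (KO) cells and 1 for places with more in wild-type (WT) cells. They number 6280 of the 21418 events that the series holds over 3 histone marks, and 738 were higher in KO and 5542 in WT. Dicer is the ribonuclease that cuts microRNA precursors into mature microRNAs. Both genotypes were mouse MSCs (mesenchymal stromal cells), immortalized and labelled as monoclonal, although the titles of the samples speak of fibroblasts, so each genotype may be 1 clone. They were grown in alpha-MEM with 10% fetal bovine serum and no further agent is named. The labels used here describe H3K27ac samples, and the H3K4me3 lists carry the same genotype names with no sample, antibody or replicate of their own. Every event therefore has 1 value per genotype, no spread between replicates exists, and no difference below was tested; a difference between the clones and one between the genotypes cannot be told apart.

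H3K4me3 is the trimethylated form of lysine 4 of histone H3. It is laid down by SET1 and MLL methyltransferase complexes and is found around the start sites of active genes, usually on the nucleosomes that flank the start and reach into the first part of the gene. Promoters rich in CG dinucleotides tend to carry broad domains of the mark. In stromal cells it marks both housekeeping promoters and those of the matrix, contractile and patterning genes that the cells use.

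An event is a single position at which the authors' software (GEM) placed reads; the software shares reads between neighbouring events, so 1 marked promoter can hold several. Each event carries the reads of the genotype in which it was higher and the reads of the other genotype after a scaling by the authors. The ratio of these values is the measure used below, and intervals in parentheses are exact 95% limits that cover counting error only. Positions are in mouse build mm9. Gene names were given to events by approximate mm9 gene starts recalled from general knowledge, since no mm9 annotation was at hand, so a name says only that events lay near where that gene is believed to start. The names were assigned within 5 kb, and the genes were chosen with results of these data already known.

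The software also attached a short sequence word (k-mer) to some events. These words are printed because the lists held different ones, although most events of both lists carried none. In the KO list 126 of 738 events (17.1%, 14.4% to 19.99%) carried a word, and all 4 words share most of their letters with one another in shifted order:
KO word on 73 events: TTCACTTT
KO word on 39 events: TTTCACTT
KO word on 10 events: ACTTTCAC
KO word on 4 events: CACTTTCA
In the WT list 353 of 5542 events (6.37%, 5.74% to 7.04%) carried a word, and all 3 words are rich in C and G:
WT word on 139 events: CGCCCGGT
WT word on 108 events: CCCCCGGT
WT word on 106 events: CGCCCTGT
The words of the KO list lay mostly at isolated events: 102 of the 126 (81.0%) were the only event of their region, against 430 of the 612 KO events without a word (70.3%). Their median ratio was 3.65, against 4.16 without a word. In the WT list 56 of 353 events with a word (15.9%) stood alone, against 14.0% of those without, with median ratios of 3.11 and 3.002. The KO words use letters of the interferon-stimulated response element, a DNA sequence bound by interferon regulatory factors; a shared word is a description and says nothing of whether such a factor bound. For scale, TTTCACTT occurred on either strand in 1.60% and TTCACTTT in 1.56% of the 32851 RefSeq promoter windows of 300 bases (build GRCm38.p6), ACTTTCAC in 0.846% and CACTTTCA in 1.21%. The WT words CGCCCGGT, CCCCCGGT and CGCCCTGT occurred in 0.861%, 0.661% and 1.00% of the windows. Because the words overlap, 1 site can match more than 1 of them. The windows are not the places of the events, so their shares are no background for the event counts.

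The promoters of 5 genes whose regions are described below are shown next, with each CG dinucleotide in capitals, to let their base composition be read beside the marks. They were matched by gene symbol to RefSeq (GRCm38.p6), run from 250 bases before to 50 bases after the annotated start, and their coordinates belong to that build and cannot be set against the mm9 positions of the events. Of 40 named loci, 29 had such a window; Igf2bp1, Col1a1 and Wnt5a are among those named only. Igf2bp2 and Igf2bp3 were higher in KO, and Emx2, Tnc and Acta2 in WT.
Igf2bp2 (chr16:22163250-22163549, minus strand): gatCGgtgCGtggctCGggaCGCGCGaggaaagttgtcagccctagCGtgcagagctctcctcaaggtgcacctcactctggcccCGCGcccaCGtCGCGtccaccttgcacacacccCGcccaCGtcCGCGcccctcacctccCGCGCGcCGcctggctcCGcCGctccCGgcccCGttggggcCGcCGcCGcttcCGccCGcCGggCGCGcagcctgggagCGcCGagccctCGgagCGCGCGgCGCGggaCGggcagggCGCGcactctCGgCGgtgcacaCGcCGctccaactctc
Igf2bp3 (chr6:49214905-49215204, minus strand): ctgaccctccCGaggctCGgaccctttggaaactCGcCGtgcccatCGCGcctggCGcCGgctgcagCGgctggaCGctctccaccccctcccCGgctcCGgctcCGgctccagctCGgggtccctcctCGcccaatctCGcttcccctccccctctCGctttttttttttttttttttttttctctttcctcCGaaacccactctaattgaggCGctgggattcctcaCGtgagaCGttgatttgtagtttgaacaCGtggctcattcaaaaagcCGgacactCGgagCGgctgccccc
Emx2 (chr19:59458440-59458739, plus strand): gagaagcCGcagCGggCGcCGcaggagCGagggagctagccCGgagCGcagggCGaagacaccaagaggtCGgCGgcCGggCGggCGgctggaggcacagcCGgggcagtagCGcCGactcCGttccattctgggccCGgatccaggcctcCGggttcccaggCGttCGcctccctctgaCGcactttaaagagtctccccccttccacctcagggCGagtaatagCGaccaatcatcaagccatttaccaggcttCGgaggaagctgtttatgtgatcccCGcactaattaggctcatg
Tnc (chr4:64046966-64047265, minus strand): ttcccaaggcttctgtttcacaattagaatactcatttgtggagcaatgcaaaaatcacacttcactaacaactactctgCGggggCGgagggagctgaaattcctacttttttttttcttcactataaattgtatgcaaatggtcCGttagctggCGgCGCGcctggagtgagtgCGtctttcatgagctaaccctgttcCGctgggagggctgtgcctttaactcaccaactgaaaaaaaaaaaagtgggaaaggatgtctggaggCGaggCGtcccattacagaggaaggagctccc
Acta2 (chr19:34255324-34255623, minus strand): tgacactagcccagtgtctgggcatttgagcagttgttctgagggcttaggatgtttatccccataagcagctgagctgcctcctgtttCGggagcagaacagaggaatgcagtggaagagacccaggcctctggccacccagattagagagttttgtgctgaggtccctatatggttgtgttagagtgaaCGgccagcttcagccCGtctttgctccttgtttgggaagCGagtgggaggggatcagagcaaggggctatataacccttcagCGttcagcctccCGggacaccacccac
The Igf2bp2 window held 47 CG dinucleotides, a number that 1.44% of all windows reach, and the Igf2bp3 window 25, which 18.4% reach. Emx2 held 26, which 16.9% reach. Tnc, of which the first listed start is shown, held 10 and Acta2 6, beside a median of 7 and quartiles of 3 and 20 over all windows. The CG numbers of these 5 thus ran from near the median of all windows to a number that few windows reach. None of the 29 windows held any of the 7 words above.

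In the KO list the higher genotype had 94 to 1873 reads per event, with a median of 231 and quartiles of 182 and 344. The other genotype, WT, had a median of 57.7 scaled reads there. In the WT list the higher genotype had 66 to 2782 reads, with a median of 558 and quartiles of 296 and 965, beside a median of 176 scaled KO reads. WT-higher events were therefore both more numerous and more deeply covered: 1284 of them (23.2%) reached 1000 reads, against 18 KO-higher events (2.44%). Near-complete absence in the other genotype was uncommon in both lists. Fewer than 10 scaled reads remained in the other genotype at 21 KO events (2.85%) and at 169 WT events (3.05%), and 1 event, in the WT list, had 0 reads in the other genotype. By the scaling described below, that cut allows more counted reads in the WT list than in the KO list, so these shares are not fully alike.

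KO-higher events had a median ratio of 4.10 (quartiles 2.85 and 6.97), and WT-higher events one of 3.01 (2.55 and 4.16). A ratio of 2 or more was reached by 719 KO events (97.4%) and 5182 WT events (93.5%). A ratio of 5 or more was reached by 290 KO events (39.3%) and 1069 WT events (19.3%), and one of 10 or more by 103 (14.0%) and 496 (8.95%). The lower limit of the counting interval was itself at least 2 at 548 KO events (74.3%) and 4728 WT events (85.3%). The KO list thus held fewer events with larger ratios, and the WT list a mass of well-covered events with ratios near 3.

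**Figure D1:**
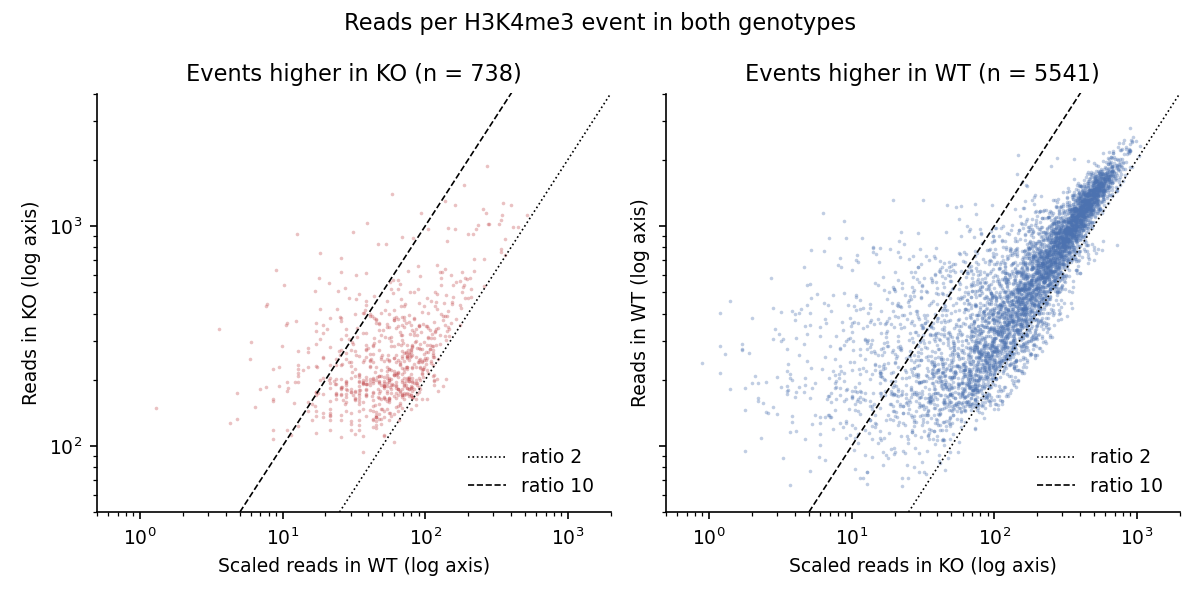
Reads of the higher genotype (vertical, log axis) against scaled reads of the other genotype (horizontal, log axis) for each event, KO list left and WT list right, with lines at ratios of 2 and 10; the 1 WT event with 0 reads in the other genotype is left off. The WT events form a dense band just above the line at 2 that runs to over 1000 reads, while the KO events have a median of 231 reads.

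How large the WT differences are depends on the scale between the libraries. The steps between deposited values show that WT reads had been multiplied by 2.15 in the KO list and KO reads by 0.461 in the WT list. At the KO factor 94.4% of the 463 usable values were whole multiples of a read, and at the WT factor 54.3% of 1139, so the latter is less certain. As counted, before that scaling, KO-higher events had a median ratio of 8.79 and WT-higher events one of 1.39, and at 591 WT events (10.7%) the KO library had the larger number of reads. The lists also hold 1 value per chromosome for each genotype, called background reads here, which the sources used here do not define. With each genotype's reads divided by its own background reads on that chromosome, these medians became 6.77 and 1.48. All 738 KO events were then at least 2-fold higher in KO, against 1668 WT events (30.1%), and at 607 WT events (10.95%) KO became the higher genotype. Relative to the scale of the lists, background units multiply all ratios of a list on a chromosome by the same number. That number was above 1 for the KO list and below 1 for the WT list on every chromosome. Every KO ratio therefore had to rise and every WT ratio to fall. Ratios are given on the scale of the lists below unless background units are named. For WT-higher genes the background value of the region is given as well.

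Chromosomes differed in their balance. KO events made up 11.8% (10.97% to 12.6%) of all H3K4me3 events, but 0.775% on chromosome 9 (11 against 1409 WT events), 1.81% on chromosome 19 (7 against 380) and 3.18% on chromosome X (10 against 304). At the other end stood chromosome 12 with 47.3% (62 against 69), chromosome 16 with 36.4% (52 against 91) and chromosome 1 with 34.5% (76 against 144). The WT events of chromosome 9 had a median ratio of 2.94, about that of the whole list, but 1.14 in background units. Chromosomes 19 and 10 followed with 1.28 and 1.37, whereas chromosomes 12, 6 and 18 had 2.51, 2.51 and 2.55. Relative to KO, the WT background reads were highest on chromosome 9 (127 against 106.4) and lowest on chromosome 12 (54.5 against 84.1). What background reads contribute to these counts was not tested.

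Neighbouring events lay at a typical distance. Among WT events 4516 (81.5%, 80.4% to 82.5%) had another WT event within 1 kb, and the median distance between neighbours was 879 bp. Among KO events 147 (19.9%, 17.1% to 23.0%) had one, and the median distance was 1146928 bp. Where neighbours were within 5 kb, the median spacing was 734 bp (quartiles 593 and 1143) over 120 KO spacings and 634 bp (516 and 775) over 3188 WT spacings. Spacings of 400 to 799 bp made up 55% and 70.2% of these, and the upper tail was longer in KO. Spacings under 400 bp numbered 7 and 267, and the smallest were 205 bp and 148 bp. The software sets how close events can be placed, and its part in this spacing was not tested.

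**Figure D2:**
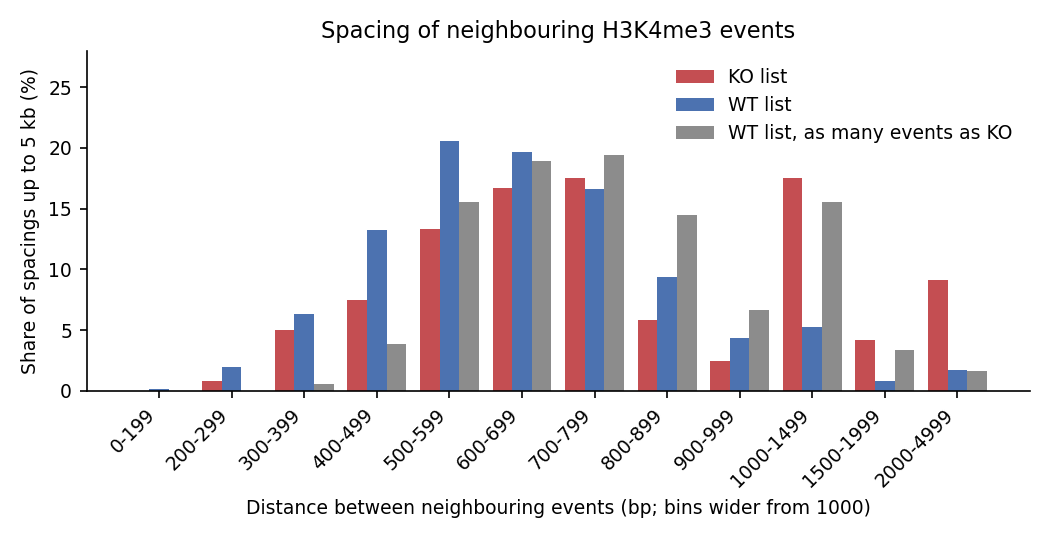
Share of spacings up to 5 kb (vertical, percent) in each distance bin (horizontal, bp; bins are wider from 1000 bp) for the KO list, the WT list and the 738 WT events with the largest −log10 q. Both full lists are densest between 400 and 799 bp, which holds 55% of KO and 70.2% of WT spacings.

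Events with more reads had neighbours more often in both lists, and within each class of reads in the higher genotype the share was larger in the WT list. Among events with under 200 reads, 7.64% of 275 KO events and 50.6% of 658 WT events had a neighbour of their list within 1 kb. From 200 to under 400 reads the shares were 17.0% of 336 and 71.5% of 1348. From 400 to 799 reads they were 45.2% of 93 and 87.4% of 1656, and from 800 reads 79.4% of 34 and 94.2% of 1880. The gap was thus smaller among the most deeply covered events, and the shallow KO events mostly stood alone. The classes use KO reads in the KO list and WT reads in the WT list, as counted, so they do not match depth between the libraries. In the KO list WT reads had been multiplied by 2.15, so a KO class is nearer to a lower WT class. Set beside WT events with 200 to under 400 reads, KO events with 400 to 799 reads had 45.2% against 71.5%. The number of events and the reads of the other genotype also differed. When the WT list was cut to its 738 events with the largest −log10 q, the same number as in the KO list, 247 (33.5%, 30.1% to 37.0%) kept a neighbour within 1 kb. That list differs from the full one both in the number of events and in holding the strongest, and these cannot be told apart here.

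Merging events of 1 list within 5 kb gave 618 KO and 2354 WT regions. Of the KO regions 532 (86.1%) were a single event, with a median of 210 reads and a median ratio of 3.68. Of the WT regions 783 (33.3%) were a single event, with a median of 239 reads and a median ratio of 4.06. Regions with several events numbered 86 and 1571. Their median width from first to last event was 968.5 bp (quartiles 635 and 1797.5) in KO and 1183 bp (648 and 1790.5) in WT, so the quartiles of width overlapped between the lists. The widest reached 5266 bp in KO and 12821 bp in WT. At most 6 events lay in a KO region and 9 in a WT region, and 22 KO and 958 WT regions held 3 or more.

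The ratio changed with region size in KO only as a description: from 1 to 2, 3, 4 and 6 events the median KO ratio was 3.68, 3.86, 5.04, 9.23 and 10.9, over 532, 64, 14, 6 and 2 regions. In WT it was 4.06, 2.98, 2.87, 2.85 and 2.73 from 1 to 5 events. The medians for larger KO regions rest on few regions, and 2 of those with 4 events had ratios of 3.59 and 3.68. The median of WT regions with several events was near 3 throughout.

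**Figure D3:**
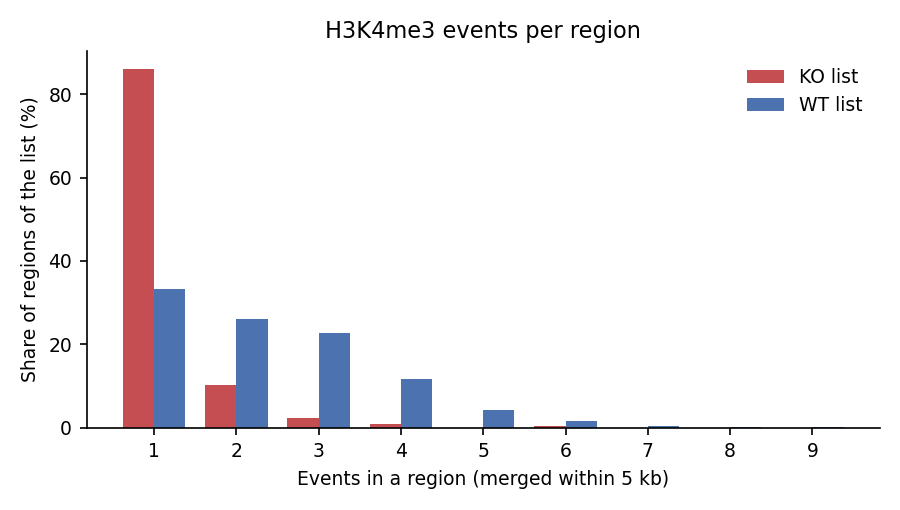
Share of the regions of each list (vertical, percent) by number of events in a region (horizontal, events merged within 5 kb). Single events make up 86.1% of the 618 KO regions and 33.3% of the 2354 WT regions.

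Inside regions of 3 or more events, the first and last events were the shallower ones. WT edge events had a median of 440.05 reads and a ratio of 2.75, and WT inner events 999.7 reads and a ratio of 3.02. The edges had the higher ratio of summed reads in 243 of the 958 WT regions (25.4%, 22.6% to 28.2%). KO edge events had a median of 382 reads and a ratio of 6.88, and KO inner events 589 reads and 9.46, with the edges higher in 10 of 22 regions. Ratios within 1 region could differ widely: the highest was at least 2-fold the lowest in 39 of 86 KO and 380 of 1571 WT regions, and at least 5-fold in 10 and 90.

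The 3 promoters of the Igf2bp family led the KO list. These genes encode RNA-binding proteins of the fetal state; they bind mRNAs, and their own mRNAs are known targets of let-7 microRNAs. Igf2bp2 and Igf2bp1 were the KO regions with the most events, and Igf2bp2 and Igf2bp3 those with the most summed reads. At Igf2bp2 (chr16:22160317-22164092) 6 events held 5887 KO reads against 665 scaled WT reads, a ratio of 8.85 (7.89 to 9.95). From the first event along the gene to the last, KO had 972, 1193, 970.1, 1402, 917 and 432 reads, and WT had 228, 255, 104, 58.1, 12.6 and 7.6 scaled reads. KO reads were thus lowest at the last event, while WT reads were lower from the third event on: the event ratios were 4.27, 4.68, 9.30, 24.1, 72.8 (32.6 to 195) and 56.9 (19.5 to 186).

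At Igf2bp1 (chr11:95864061-95867849) 6 events held 3060 KO reads against 237 scaled WT reads, a ratio of 12.9 (10.7 to 15.8). KO had 343, 855, 470, 634, 509 and 250.1 reads along the gene, and WT 33.1, 142, 29.2, 9.0, 16.9 and 5.9 scaled reads. The WT reads peaked at the second event and were low beyond it, where the ratio reached 70.5 (28.7 to 272). At Igf2bp3 (chr6:49163888-49167522) 4 events held 3887 KO reads against 268 scaled WT reads, a ratio of 14.5 (12.1 to 17.5). KO had 1144, 830, 881 and 1033 reads and WT 93.7, 53.5, 82.3 and 38.8, so here the ratio was similar at the first 3 events (12.2, 15.5 and 10.7) and highest at the last (26.6). Of the other let-7 and oncofetal genes looked up, Hmga2, Nr6a1, Trim71 and Myc had no event of either list within 5 kb of the recalled start, so 3 of 7 had a KO event and 0 a WT event. Over all 33 genes looked up in the lists, 5 (15.2%) had a KO event and 13 (39.4%) a WT event, and every list count below stands beside these shares; the share over all gene starts was not analysed here. A gene without an event carried either no mark or a mark that did not differ enough to be listed, or its start was recalled too imprecisely. Dicer1 itself had none, which does not check the genotype, since the mark at the promoter need not follow a deletion further along the gene.

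**Figure D4:**
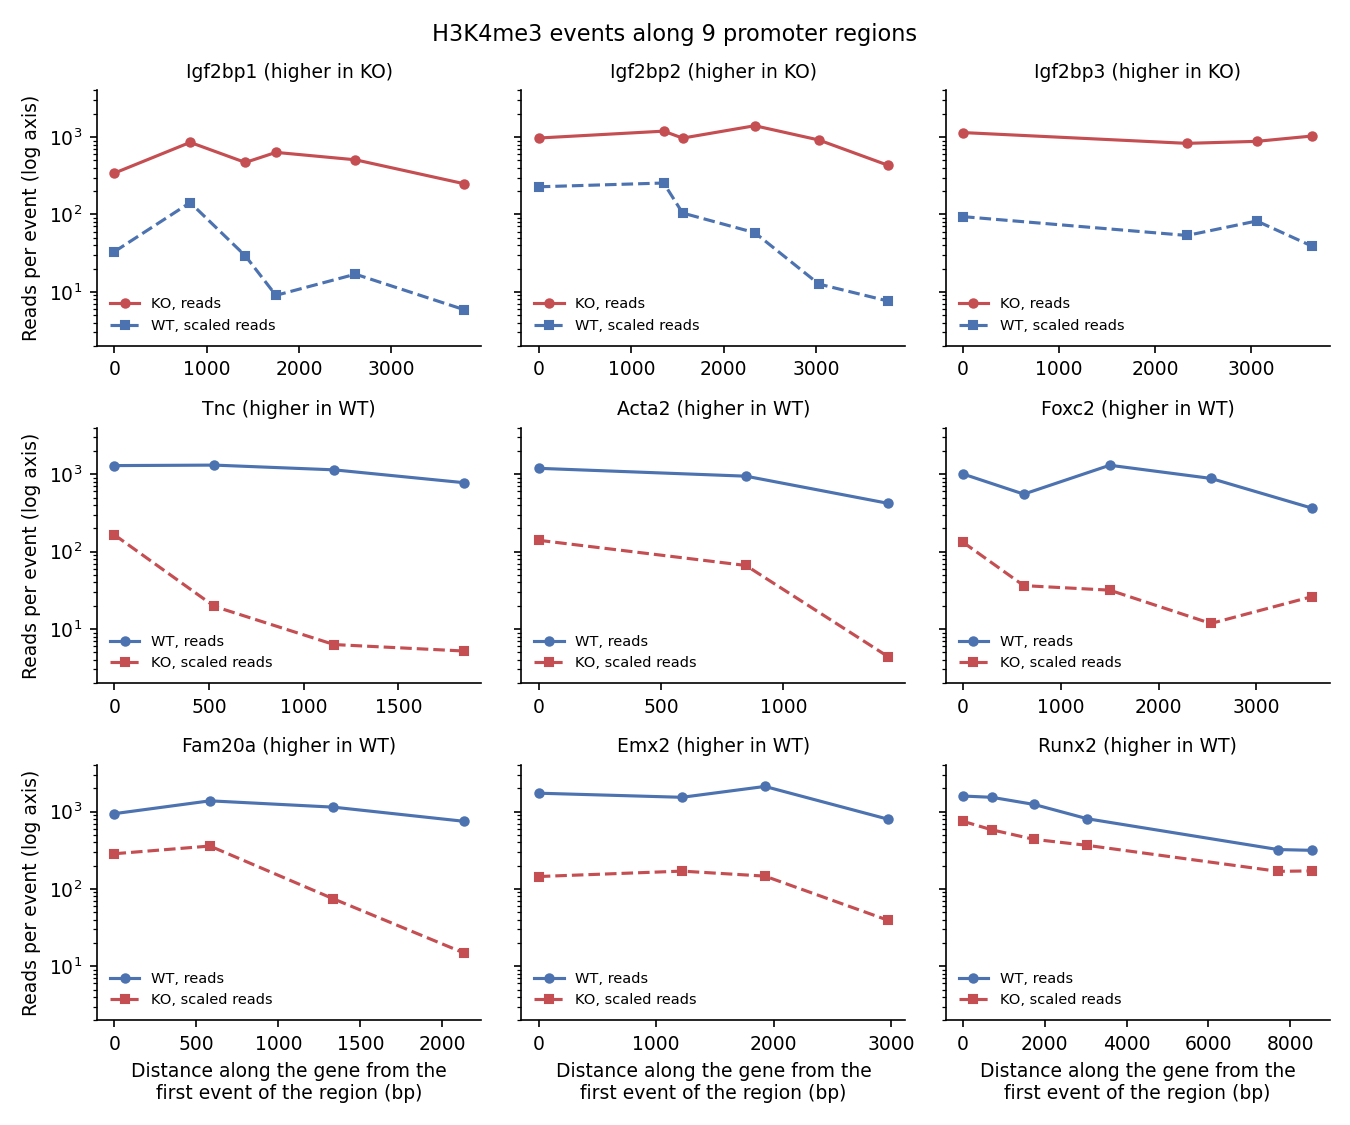
Reads of each event (vertical, log axis) by distance along the gene from the first event of the region (horizontal, bp) at 9 promoters; solid lines are reads of the higher genotype and dashed lines scaled reads of the other, with no replicates. At Igf2bp2, Tnc, Acta2 and Fam20a the dashed line falls more steeply along the gene than the solid line, and at Runx2 the lines run in parallel.

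The other named KO regions had ratios from 3.51 to 15.3. Tgm2, which encodes a protein-crosslinking transglutaminase, had 1017 and 294 KO reads at 2 events against 330 and 43.5 scaled WT reads, a ratio of 3.51 (2.996 to 4.14). Daam2, a formin of Wnt signalling, had 1298, 944 and 443 KO reads against 137, 31.0 and 7.8, a ratio of 15.3 (12.3 to 19.3). Its events lie before the recalled start, so the name is less sure there. Sntb1, which encodes a syntrophin of the dystrophin complex, had 878, 1250.0, 569 and 419 KO reads against 364, 398.7, 59.1 and 23.9, and its event ratio climbed from 2.41 to 17.5 along the gene. Tmem176b, a membrane protein gene, had a ratio of 3.59 (3.26 to 3.95) over 4 events, with event ratios between 2.41 and 4.88. Among transcription factor genes, Foxa1 had a ratio of 3.86 (3.42 to 4.38) and Sim1 one of 5.998 (4.68 to 7.85), each over 3 events. Flrt2, which encodes a leucine-rich repeat membrane protein, had 4.95 (4.27 to 5.76) and Mpped2, a phosphodiesterase gene, 4.60 (3.78 to 5.64). All 8 of these except Tgm2 were looked up after their values had been seen. In background units these KO ratios ran from 5.37 for Foxa1 to 25.7 for Daam2. They were all larger because that scale raises every KO ratio, so the rise says nothing about these genes.

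Among the genes listed as matrix and contractile, Tnc, Acta2 and Dpysl3 were higher in WT, although Dpysl3 is itself neither. Tnc encodes tenascin-C, an extracellular matrix glycoprotein of developing and injured connective tissue. At Tnc (chr4:63705874-63707719) WT had 1296, 1315, 1142 and 780 reads along the gene, and KO 165, 19.6, 6.3 and 5.2 scaled reads. The WT signal was nearly even, and the KO signal was held almost wholly by the first event, so the event ratio went from 7.87 (6.99 to 8.86) to 67.1 (49.0 to 92.2), 181 (105 to 325) and 150 (85.6 to 310). Over the region it was 23.1 (20.96 to 25.6), and 11.8 in background units. Acta2 encodes smooth muscle alpha-actin, the contractile actin of myofibroblasts. At Acta2 (chr19:34327996-34329424) WT had 1195, 946 and 422 reads and KO 140.3, 66.3 and 4.4 scaled reads, with event ratios of 8.52, 14.3 and 95.8 (49.3 to 192). The region ratio was 12.1 (10.99 to 13.4), or 5.63 in background units. Dpysl3, which encodes a cytoskeletal protein best known in growing neurites, had the largest region ratio of the named genes, 90.0 (70.1 to 118), with 139, 1059, 795 and 580 WT reads against 3.0, 8.8, 14.1 and 2.7 scaled KO reads. In background units the Dpysl3 ratio was 56.7. Of the 5 genes listed as contractile and matrix, 3 (with Dpysl3 counted) had a WT event, 1 (Tgm2) a KO event, and Htra1 neither, beside 13 and 5 of all 33.

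The promoters of Col1a1, Col1a2 and Loxl1 differed less than those of Tnc, Acta2 and Dpysl3. Col1a2 and Loxl1 were looked up after their values had been seen. Col1a1, which encodes a chain of type I collagen, had 1432 and 1491 WT reads against 392 and 482 scaled KO reads, a ratio of 3.34 (3.16 to 3.55), or 1.99 in background units. Col1a2, which encodes the other chain, was unusual in that its ratio was highest at the start. WT had 2041, 1210, 987, 1186, 1033 and 962 reads along Col1a2 against 277, 162, 201, 546, 484 and 413 scaled KO reads, so the ratio went from 7.38 and 7.47 to 2.33. Over the region it was 3.56, or 2.22 in background units. Loxl1, a lysyl oxidase of elastic fibres, had 1154, 1170, 1543 and 1229 WT reads against 206, 209, 167 and 58.3, with event ratios from 5.61 at the start to 21.1 at the end. Its region ratio was 7.96 (7.501 to 8.45), but it lies on chromosome 9, and in background units it was 3.08, with events from 2.17 to 8.15.

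Of 5 stromal, osteoblast and cartilage markers, Alpl, Runx2 and Col1a1 had WT events, and Sox9 and Twist1 had none. Thus 3 of 5 had a WT event and 0 a KO event, beside 13 and 5 of all 33. Alpl, the alkaline phosphatase of early osteoblasts, had 974, 539 and 585 WT reads against 67.1, 15.3 and 16.6, a ratio of 21.2 (18.4 to 24.5) and of 10.8 in background units. Runx2, the transcription factor of the bone lineage, had 1586, 1527, 1234, 806, 322 and 315 WT reads against 747, 580, 436, 365, 169 and 171. Its ratio was nearly even along 8542 bp, at 2.35 (2.26 to 2.43) overall and 1.38 in background units. Prrx1, a homeobox gene of limb mesenchyme looked up after its values had been seen, was alike. Its ratio was 2.58 (2.49 to 2.67), or 1.63 in background units, with event ratios between 2.35 and 2.89. Both genotypes thus carried reads at the promoters of Runx2, Prrx1, Col1a1 and Col1a2, genes that mesenchymal stromal cells use.

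Patterning genes were split, with a single event on the KO side. Hoxc13 (chr15:102750985-102752989), a posterior homeobox gene, had 558, 1590 and 805 WT reads against 172, 157.5 and 14.1 scaled KO reads, with event ratios of 3.25, 10.1 and 57.1 (39.4 to 83.6) and a region ratio of 8.60, or 4.80 in background units. Hoxa13, needed for distal limb patterning, lay in a region of 9 WT events over 8779 bp (chr6:52202223-52211001) with a ratio of 2.91 (2.80 to 3.04), or 1.81 in background units. A pair of events next to the first stood out with ratios of 5.30 and 7.48, and the last had 1.25. The match of this region to Hoxa11, 1 of the 13 WT matches, is doubtful, since the recalled start of Hoxa11 is imprecise. At Hoxd13 a single KO event had 259 KO against 114 scaled WT reads, a ratio of 2.28 (1.69 to 3.12). It lay after the recalled start, within 5 kb of it but not within 2 kb, so the name is less sure there. Of the 5 Hox genes described, 1 thus had a KO event and 3 a WT event, beside 5 and 13 of all 33, and Hoxb13 had none. Hoxa11 and Hoxa13 count the same 9 events.

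Among other transcription factor genes, 4 of 7 had a WT event and 0 a KO event, beside 13 and 5 of all 33. Foxc2, a forkhead gene of mesenchyme and vessels, had 1009, 554, 1309, 885 and 364 WT reads against 132, 36.4, 31.8, 11.8 and 26.3, a ratio of 17.3 (15.8 to 18.97), or 9.79 in background units. At Foxc2 the highest event ratio, 75.02 (50.1 to 113.8), was the largest of any WT event with at least 10 scaled reads in the other genotype. Emx2, a homeobox gene of the urogenital tract and brain, had 1725, 1527, 2110 and 796 WT reads against 145, 169.7, 146 and 39.3, a ratio of 12.3 (11.6 to 13.2) and of 5.72 in background units. Gata6, a zinc finger gene, had a ratio of 4.87 (4.37 to 5.43), or 3.07 in background units, over 2 events. Meis2, a homeobox partner of Hox proteins, had the widest WT region (8 events over 12821 bp), with a region ratio of 3.10 (2.96 to 3.26), or 1.93 in background units. Its event ratio was between 1.42 and 2.03 at the 3 events farthest before the start and reached 5.52 at the last, and its second event was below 1 in background units, at 0.880. Foxf1, Foxl1 and Wt1 had no event within 5 kb.

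Secreted signals and their regulators, looked up after their values had been seen, covered the same range. Wnt5a, a ligand of non-canonical Wnt signalling, had 8 events and a ratio of 12.01 (11.09 to 13.04), or 6.61 in background units. Of its events 7 lay between 10.2 and 21.7 and the sixth had 1.84. Sfrp2, a secreted Wnt modulator, had 579, 1877, 1382, 1020 and 954 WT reads against 210.3, 249.7, 194, 158 and 94.2, and a ratio of 6.42 (6.10 to 6.76), or 3.84 in background units. Inhba, a subunit of activin, had 8 events with ratios between 2.27 and 4.28, and a region ratio of 3.03, or 1.81 in background units. Smad6, an inhibitor of BMP signalling on chromosome 9, had a ratio of 3.66 (3.53 to 3.80) but 1.42 in background units. Ephb2, a receptor of ephrins, had 187, 529, 882 and 263 WT reads against 20.6, 19.5, 6.9 and 1.3 scaled KO reads, and its event ratio went from 9.07 to 27.1, 128 (77.0 to 229) and 202 (64.4 to 929), with 38.5 for the region, or 19.7 in background units. Sdc3, a heparan sulfate proteoglycan, had a region ratio of 18.01 (15.8 to 20.7), or 9.22 in background units, and Galnt13, a glycosyltransferase gene, one of 16.3 (14.7 to 18.1), or 10.1. Fam20a, of the family of secretory pathway kinases, had 939, 1375, 1139 and 748 WT reads against 285, 358, 74.4 and 14.9, so its event ratio went from 3.30 and 3.84 to 15.3 and 50.2 (35.6 to 74.8), with 5.74 for the region, or 3.42 in background units.

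The deepest WT regions had ratios close to the median of the list. Malat1, Neat1, Amotl2 and Ebf1 were looked up after their values had been seen. Malat1, a long nuclear noncoding RNA of nearly all cells, held the most summed reads: 9 events had 592 to 2387 WT reads and 208 to 753 scaled KO reads, and the ratio was 3.09 (3.01 to 3.18) with little change along the gene, from 2.85 to 3.73. In background units it was 1.43. Its neighbour Neat1, the noncoding RNA of paraspeckles, had 2.28 (2.21 to 2.36) and 1.06. Amotl2, an angiomotin gene on chromosome 9, had 1889, 2148, 1884, 1971 and 2016 WT reads against 725, 683, 515, 457 and 361 scaled KO reads. WT reads were level there while the ratio climbed from 2.61 to 5.58, with 1.398 in background units for the region. Ebf1, a transcription factor gene, had 2.26 (2.18 to 2.34) and 1.35. An unnamed region of chromosome 9 with 8 events (chr9:41388444-41394122) had 2.59 (2.51 to 2.67) on the scale of the lists and 1.00 in background units. Others there had 0.867 (chr9:44286739-44296239) and 0.947 (chr9:106349730-106357445).

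**Figure D5:**
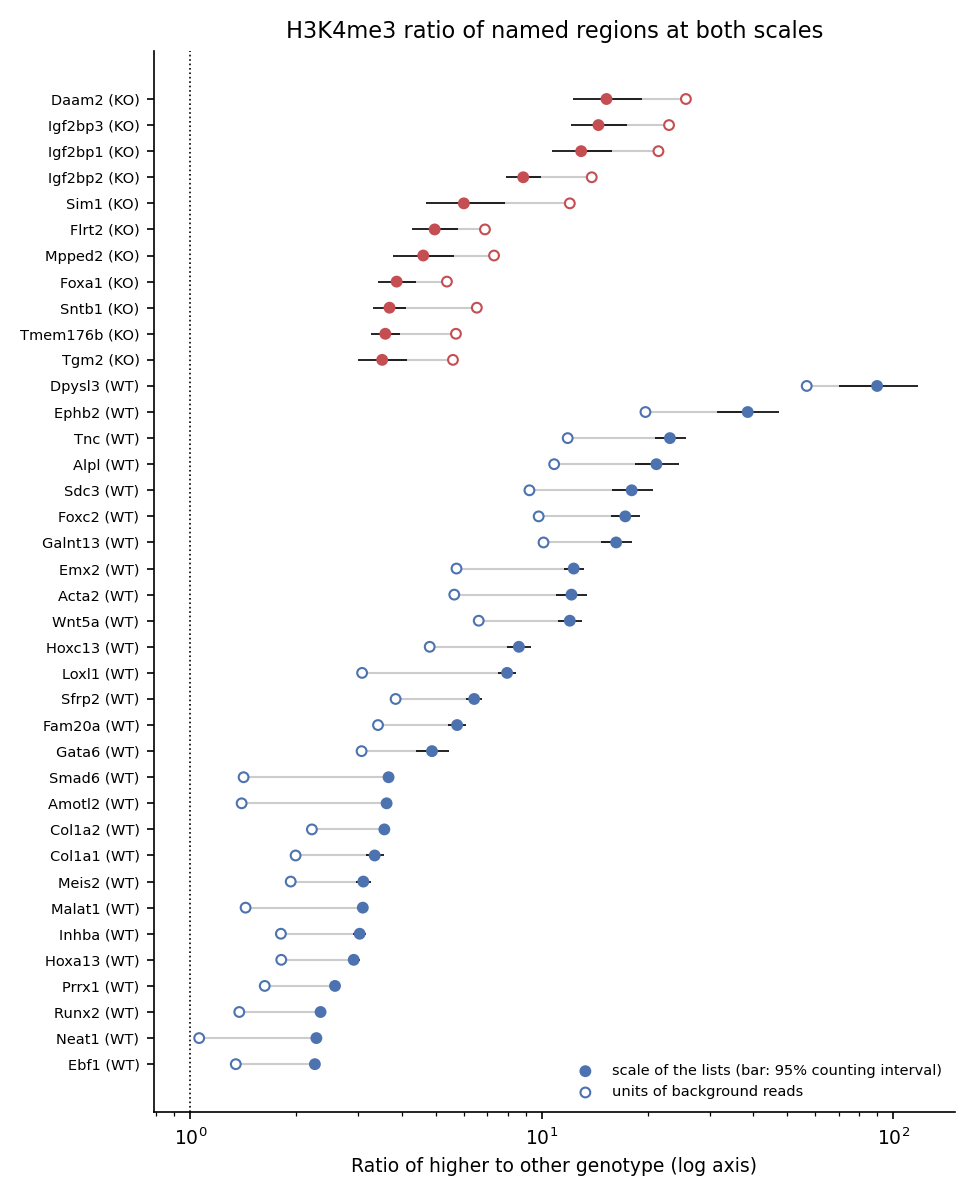
Region ratio of the higher to the other genotype (horizontal, log axis) for named genes with several events (vertical; list in parentheses), as filled points with 95% counting intervals on the scale of the lists and open points in background units; the dotted line marks 1. The change of scale multiplies all ratios of a list on a chromosome by the same number, so every KO ratio rises and every WT ratio falls. Among WT genes Dpysl3 has 56.7 in background units, and Neat1, Runx2 and Ebf1 have between 1.06 and 1.38.

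At many of these promoters the difference was larger further into the gene. Of 35 named loci with 3 or more events, the highest event ratio lay after the recalled start in 34. Among the 18 with an event before that start it did so in 17, and at the other, Daam2, all events lay before it. Most of the 18 had a single event before the start and more after it, which by itself favours a highest ratio after the start. At the remaining loci every event lay after the start, so the side was fixed and shows no trend there. In 31 of 35 the highest ratio lay further along the gene than the event with most reads of the other genotype. Those reads are the divisor of the ratio, so that event tends not to have the highest ratio, and the count partly follows from this. The last event had a higher ratio than the first in 27 of 35, 8 of 10 in KO and 19 of 25 in WT. These genes were picked with their values known and the starts are approximate, so the counts describe the named loci and not the lists. Where the other genotype's reads were few at the far events, as at Tnc or Igf2bp2, the event ratio there rests on small numbers and has a wide interval.

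KO-higher and WT-higher events were not close neighbours. No event of 1 list lay within 5 kb of an event of the other, and the smallest distance was 6067 bp. The median distance to the other list was 681395 bp from KO events and 2337056 bp from WT events. A place cannot be listed as higher in both genotypes, and the closeness to expect from lists of these sizes was not analysed here. Within 10 kb, 7 of 738 KO events had a WT event and 6 of 5542 WT events had a KO event. The strongest was a KO region of chromosome 19 (chr19:42126376-42127107) with 1531 and 1873 KO reads against 187 and 270.3 scaled WT reads, 6080 bp from a WT event with 351 WT against 117 scaled KO reads. In that place the KO events had ratios of 8.20 and 6.93, and in background units 17.5 and 14.8, beside 1.39 for the WT event. At the closest pair, on chromosome 4, a KO event had a ratio of 8.29 and the WT event 2.45, or 1.26 in background units.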

How the data were processed

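H3K4me3 ChIP-seq event lists of Dicer KO and WT stromal cells were analysed, with 1 value per genotype. Alignment was to mm9 and TopHat 1.4 is named without its role, per the submitters' processing notes. The events come from GEM, per the file headers; its version is not given in the sources used here, and words in the list names (noControl, dnase, defaultDist) are not explained. Per the file headers, the deposited values are estimated counts of reads in the higher genotype and a scaled signal for the other. The fold deposited by the authors is the ratio of these values. A column with 1 expected signal value per chromosome was deposited by the authors without a definition. The deposited −log10 q values start at 2 and end at 999. They, and the authors' k-mer score, were used only to describe and filter events. Total reads per library are unknown, so the reads of an event set its precision.

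The authors' scaling factor was recovered as the step between 0.3 and 3 (every 0.0005) that made most control values whole within 0.06, among events with whole counts. The step search was tested on simulated lists. Ratio intervals are exact conditional binomial (Clopper-Pearson) intervals of the unscaled reads, and shares have exact Clopper-Pearson intervals. No molecular identifiers are given, so reads may repeat molecules and intervals may be too narrow. Events within 5 kb were merged into regions. Software was Python 3.11.15 with SciPy 1.17.1, pandas 2.3.3, matplotlib 3.10.9 and NumPy 2.4.6.

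The members, gene lists and background scale were chosen with earlier results of these data known. Events were named by rule: the 10 of each list with the largest −log10 q, the 5 with the largest ratio at 10 or more scaled reads, and the 5 regions with the most events, width or reads. Added to these were those of 33 listed genes with an event within 5 kb of the start. Further genes near large regions were named after their values were seen, and some genes are not reported here. Gene starts are approximate mm9 positions from general knowledge, and strand for the promoter windows is from RefSeq (GRCm38.p6). No position was converted between builds. Alternatives changed the −log10 q, read and ratio minimum, merge distance, scale, chromosomes, event number and gene window.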

Additional observations from a re-analysis of the deposited data

How the results depend on the processing

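Of 52 alternatives, 29 left a value about where it was and 23 moved it. The KO share of events, 11.8%, was 9.89% at a −log10 q of 5 or more, 14.1% without chromosomes 9 and 12, 20.8% when regions were counted, and 30.7% among events at least 2-fold in background units. The median ratio was 6.77 in KO and 1.48 in WT in background units. As counted, an alternative chosen after seeing the data, it was 8.79 and 1.39. The median spacing of KO events was 1735962 bp at a −log10 q of 5 or more, and that of WT events 214913.5 bp in a list cut to as many events as KO. The share with a neighbour was 4.34% in KO and 23.3% in WT within 500 bp, and 25.5% and 85.0% within 2 kb. It was 17.0% and 71.5% at 200 to under 400 reads as counted in each list's own genotype, also chosen after seeing the data. It was 33.5% in the WT list cut to the KO number. Region width was 700.5 bp in KO and 1000 bp in WT when merged within 1 kb. Median reads were 265 in KO and 595 in WT at a −log10 q of 5 or more, and 1.88 and 5.08 times background reads. Named genes with an event numbered 4 in KO and 12 in WT within 2 kb, and 5 and 14 within 10 kb.

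No paired analysis was possible because each list gives 1 value per genotype, and for the same reason no replicate could be left out. Depth limits the shallow events most: where the other genotype had under 10 scaled reads, at 21 KO and 169 WT events, the ratio rests on few reads. That cut allows fewer counted reads in the KO list than in the WT list. The lists hold differing events only, so unchanged promoters were not analysed here.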

Other observations

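The rule for named events also picked events near which no recalled gene start was assigned, and they are given here by mm9 position. In the KO list, a region of 4 events (chr2:118999265-119001778) held an event with 751 KO against 18.2 scaled WT reads, a ratio of 41.3 (22.1 to 102). An event in a region of 3 (chr1:142078615-142079568) had 541 KO against 10.3 scaled WT reads, a ratio of 52.5 (21.5 to 156), and 1 in a region of 4 (chr16:26012120-26014421) had 356 against 10.6, a ratio of 33.6 (14.1 to 103). A KO event that stood alone on chromosome 10, at position 13806110, had 362 KO against 10.7 scaled WT reads, a ratio of 33.8 (14.3 to 105). A single isolated event thus reached the ratio of the large KO regions. On chromosome 13 an event with 1244 KO against 161 scaled WT reads (chr13:110694040-110695054) had a ratio of 7.74 (6.12 to 9.90).

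In the WT list, a region of chromosome X (chrX:33428820-33429644) held an event with 737 WT against 10.9 scaled KO reads, a ratio of 67.6 (44.4 to 104.6). On chromosome 9, where the median WT ratio was 1.14 in background units, an event of the region chr9:68501240-68502918 had 10.8 scaled KO reads and a ratio of 64.8 (43.7 to 105) and of 25.1 in background units. On chromosome 6 an event of the region chr6:65621982-65622947 had 631 WT against 10 scaled KO reads, a ratio of 63.1 (40.8 to 100.1). In background units the events on chromosomes X and 6 had ratios of 34.2 and 39.3.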
